A study of Homo sapiens with 11 samples.

Results

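The 32 genes described here encode the enzymes that build cholesterol and fatty acids and the proteins that switch those enzymes on and off. They were chosen by name as members of the pathway controlled by SREBP (sterol regulatory element-binding protein), with earlier results of these data known. Each matched 1 of the 19990 rows of the count table. By role, 7 genes act in the mevalonate steps, 11 in the squalene and sterol steps and 8 in fatty acid synthesis, and 6 are regulators.

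Their RNA was measured in cardiomyocytes grown out of WTC11, a long-established line of human induced pluripotent stem cells, here at passage 63. Differentiation was started with CHIR99021, a GSK3 inhibitor that turns on Wnt signalling, and continued with IWP2, a blocker of Wnt secretion. All wells came from this 1 differentiation and were then kept in B27 medium with insulin, with no other agent, until 4 wells were collected on Day 30, 3 on Day 60 and 4 on Day 113. Wells of 1 differentiation measure well-to-well spread, so p-values cover neither another differentiation nor another line, and day of culture and day of collection cannot be told apart.

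Libraries of poly(A)-selected RNA held 24.1 to 34.5 M counts (M, units of 1000000). All 8 cardiomyocyte markers looked for, among them TNNT2, MYH6, MYH7 and ACTN2, were detected, and their summed level was 26653 to 38001 counts per 1000000 (CPM) on Day 30, 32344 to 37163 CPM on Day 60 and 27143 to 29956 CPM on Day 113. The wells were not sorted, and in such bulk RNA fewer cells of a type and less RNA per cell cannot be told apart.

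Cholesterol is built from acetyl-CoA. The mevalonate steps make isoprenoid units, which are joined into squalene, closed into lanosterol and trimmed and reduced to cholesterol, while malonyl-CoA is built in parallel into palmitate and then lengthened or desaturated. When sterols in the endoplasmic reticulum run low, the escort protein SCAP carries SREBP to the Golgi, where it is cut and released to switch on these genes; when sterols are plentiful, INSIG proteins hold SCAP back. A heart muscle cell burns fatty acids for most of its energy and takes up much of its lipid from outside.

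Of the 32 genes, 19 changed over the 3 days at an adjusted p under 0.05 (edgeR quasi-likelihood test over all 19990 genes), against 37.1% of all genes. More of them changed in the second interval (Day 60 to Day 113) than in the first (Day 30 to Day 60), mostly downward. The share of all genes called was also larger in the second interval, which is the longer. Changes were not scaled to the length of the interval. From Day 30 to Day 60, 5 genes rose and 4 fell, 9 of 32 against 10.3% of all genes (4.39% of all genes rose and 5.91% fell); with upper-quartile scaling the split was 6 and 3. From Day 60 to Day 113, 2 rose and 13 fell, 15 of 32 against 24.0% of all genes (12.9% rose and 11.1% fell). Between Day 30 and Day 113, 6 rose and 9 fell, 15 of 32 against 34.5% of all genes (17.3% rose and 17.2% fell).

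These genes were well expressed, with a median of 95.4 CPM against 11.4 CPM over all genes. Among the 10548 genes with a mean of at least 9.35 CPM, a bound that keeps 31 of the 32 genes, the share called over the whole course was near the background: 15 of those 31 were called, against 45.2% of such genes. The first interval gave 9 against 13.6%, the second 15 against 33.7%, and any change 19 against 49.9%. This bound was chosen after the values were seen. The wells of Day 30 and Day 60 kept apart for 9 genes that were higher and 6 that were lower on Day 60 than on Day 30 (24.8% of all genes), for 3 and 11 on Day 113 against Day 60 (30.6%), and for 4 and 9 on Day 113 against Day 30 (35.1%).

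The median log2 change of the 32 genes was 0.17 in the first interval and -0.25 in the second, beside -0.011 and 0.002 over all genes. For 15 of the 32 genes the highest daily mean was on Day 60, which held for 27.4% of all genes; 9 were highest on Day 30 and 8 on Day 113. The change in the second interval minus the change in the first was below 0 and past the threshold for 8 genes and above 0 for 2, 10 of 32 against 9.34% of all genes (4.38% below and 4.97% above). With upper-quartile scaling, 9 were below 0 and 0 above.

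**Figure D1:**
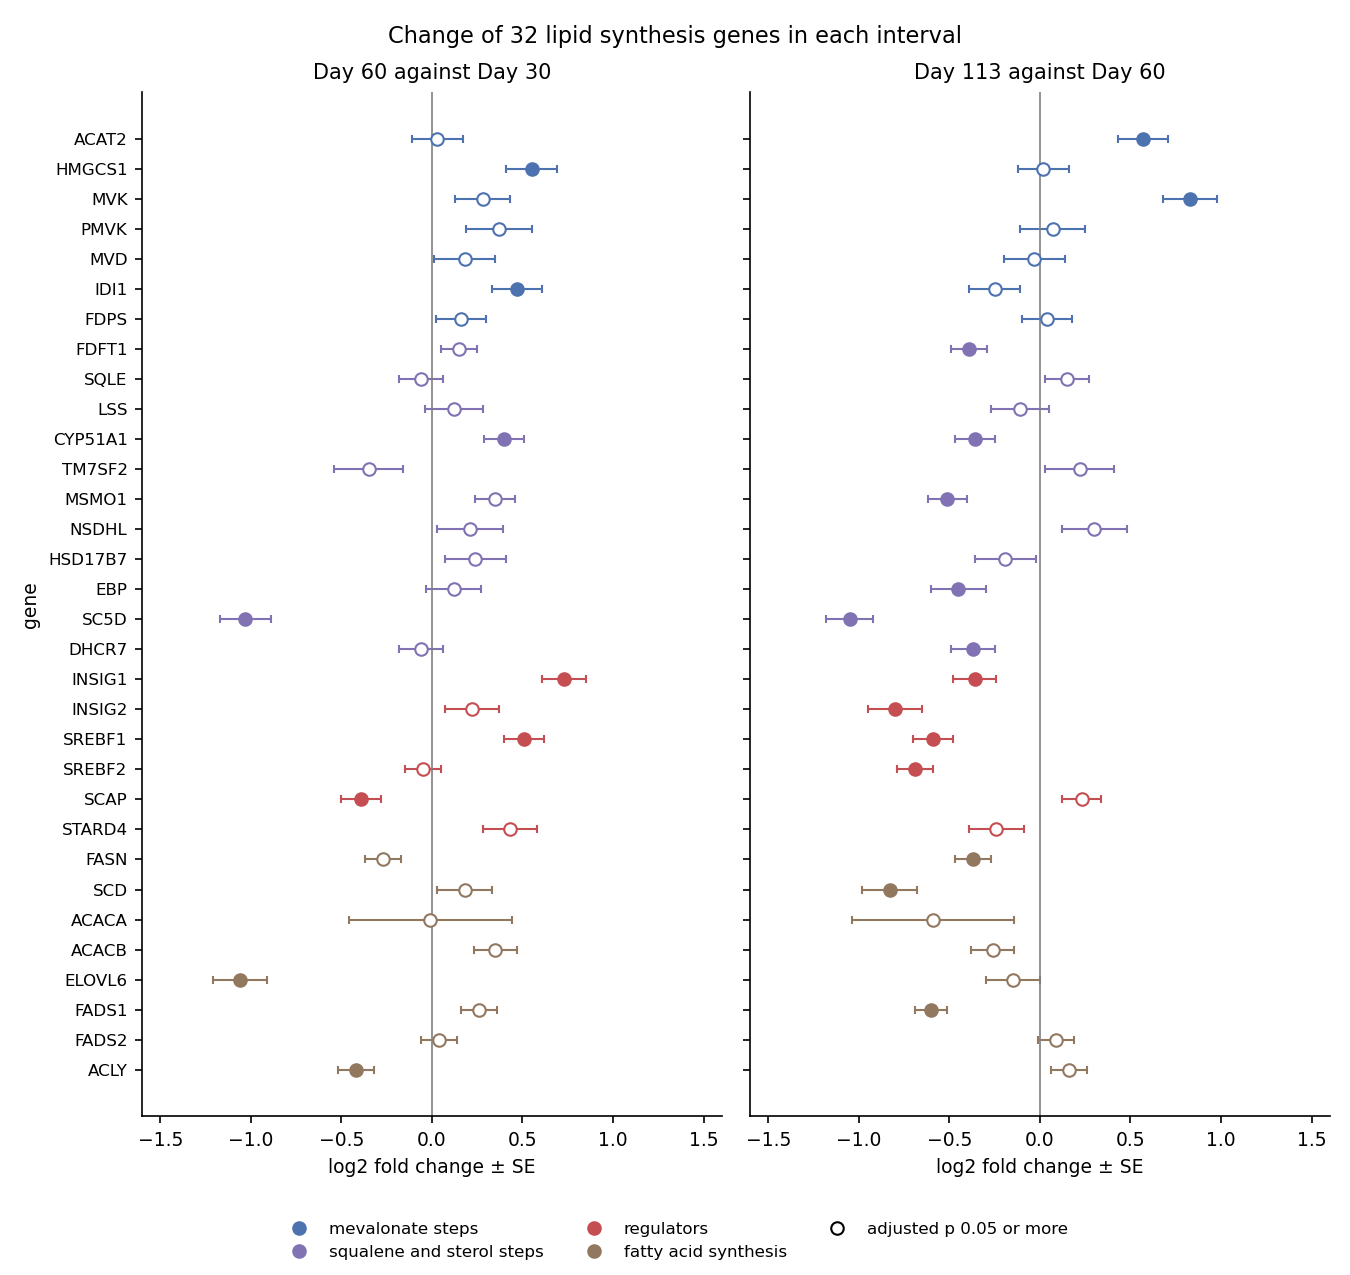
Log2 fold change with its standard error (horizontal axis) for each of the 32 genes (vertical axis), from Day 30 to Day 60 on the left and from Day 60 to Day 113 on the right; filled points are past an adjusted p of 0.05 and colours give the role. In the second interval 13 filled points lie below 0 and 2, ACAT2 and MVK, above it.

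Counts in the first interval rested on few wells. Leaving out Day 60 replicate 3 left 4 of the 32 genes called (6.11% of all genes), and leaving out Day 30 replicate 3 left 5 (7.18%). The 10 calls for a difference between the intervals fell to 2 without Day 60 replicate 1 (3.22% of all genes) and to 4 without Day 60 replicate 3 (3.87%).

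Summed levels are given by role, with no test between roles. Summed over its 7 genes, the mevalonate group was measured at 456, 403, 392 and 430.5 CPM on Day 30, at 519, 521 and 662 CPM on Day 60, and at 485, 615, 567 and 659 CPM on Day 113, so all later wells lay above all Day 30 wells. HMGCS1 made up much of this sum: without it the other 6 genes summed to 205 to 235.5 CPM on Day 30, 254 to 291 CPM on Day 60 and 227 to 328 CPM on Day 113, and Day 113 overlapped Day 30. The 11 squalene and sterol genes summed to 1023 to 1217 CPM on Day 30, 908 to 1008 CPM on Day 60 and 633 to 759 CPM on Day 113, with no overlap between any 2 days. That course was set by SC5D, which gave a mean of 470 of the 1121 CPM on Day 30. Without SC5D the other 10 genes summed to 631 to 673 CPM on Day 30, 682 to 768 CPM on Day 60 and 532 to 643 CPM on Day 113, so Day 60 was the highest day and Day 113 overlapped Day 30. For the 6 regulators the sums were 961 to 1089, 1056 to 1238 and 743 to 867 CPM, and for the 8 fatty acid genes 1159 to 1393, 1209 to 1439 and 883 to 1024 CPM; in both groups Day 113 lay below both earlier days, which overlapped each other. Sums without these 2 genes were computed after the values were seen, and the genes are given one by one.

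**Figure D2:**
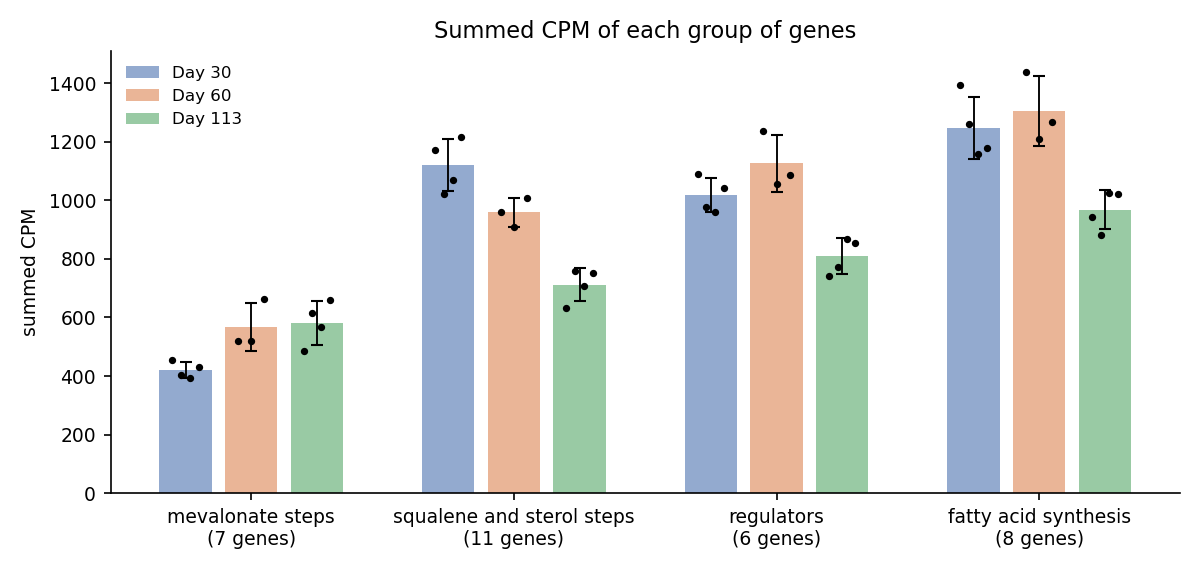
Summed CPM (vertical axis) of the 4 groups of genes (horizontal axis) on each day; bars are means over wells, points are wells and error bars are SD (n = 4, 3 and 4 wells). The mevalonate sum was higher on Day 60 and Day 113 than on Day 30, and the other 3 sums were lowest on Day 113.

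In the mevalonate steps 4 of 7 genes were higher on Day 113 than on Day 30 and none fell (median log2 change 0.44), where 17.3% of all genes rose and 17.2% fell. HMGCS1, the cytosolic synthase that makes HMG-CoA (chr5:43289395-43313512, minus strand), was measured in the wells at 220.5, 194, 187 and 206 CPM on Day 30, 265, 253 and 371 CPM on Day 60, and 258, 287, 295 and 362 CPM on Day 113. Every later well was above every Day 30 well. Its log2 change was 0.55 ± 0.14 (SE) in the first interval (adjusted p = 0.016), 0.02 ± 0.14 in the second (adjusted p = 0.93) and 0.58 ± 0.13 over the whole course (adjusted p = 0.0024). The second change minus the first was -0.53 ± 0.24 and not called (adjusted p = 0.19). The first step was not called without Day 60 replicate 3, the highest well (0.38, adjusted p = 0.11), or without Day 30 replicate 3 (0.52, adjusted p = 0.054).

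MVK, mevalonate kinase (chr12:109573255-109598117, plus strand), was at 19.2, 18.2, 19.0 and 19.7 CPM on Day 30, 28.5, 22.0 and 18.8 CPM on Day 60, and 36.4, 50.5, 36.0 and 42.1 CPM on Day 113. The Day 30 wells were nearly equal, the Day 60 wells overlapped them, and all Day 113 wells lay above both. Its change in the second interval was 0.83 ± 0.15 (adjusted p = 0.0012) and over the whole course 1.12 ± 0.14, 2.17-fold (adjusted p = 2.1e-05), the widest rise among the 32 genes. The second change minus the first was 0.55 ± 0.27 and not called (adjusted p = 0.23). The exons of MVK overlap those of MMAB, a cobalamin pathway gene on the opposite strand, by 306 bases; MMAB rose by 0.61 over the same course (adjusted p = 2.4e-04).

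ACAT2, the cytosolic thiolase that opens the pathway, was low at 12.6, 13.2, 14.6 and 15.9 CPM on Day 30, 14.4, 12.3 and 16.5 CPM on Day 60, and 20.2, 21.0, 21.3 and 22.9 CPM on Day 113. It also rose in the second interval, by 0.57 ± 0.14 (adjusted p = 0.01; 0.46 and adjusted p = 0.051 without Day 60 replicate 2), and over the course by 0.60 ± 0.13 (adjusted p = 0.0024), with Day 113 above both earlier days in every well. ACAT2 overlaps the oppositely oriented TCP1 and SOD2, which were at 130 and 285 CPM on Day 113. Over the same course TCP1 rose by 0.37 (adjusted p = 0.0023) and SOD2 changed by 0.23 (adjusted p = 0.05), and the deposited counts do not say how reads in the overlap were assigned.

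IDI1, the isomerase that readies isoprenoid units for joining, was measured at 87.3, 78.1, 71.7 and 81.7 CPM on Day 30, 92.0, 104 and 136 CPM on Day 60, and 71.99, 97.9, 101 and 103 CPM on Day 113. All Day 60 wells were above Day 30, by 0.47 ± 0.14 on the log2 scale (adjusted p = 0.043), and Day 113 overlapped both. The call was lost when any of 7 of the 11 wells was left out (all 4 Day 30 wells, Day 60 replicates 2 and 3, and Day 113 replicate 3), with values of 0.32 to 0.52 and adjusted p from 0.053 to 0.23.

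PMVK, phosphomevalonate kinase, was at 24.0, 19.0, 24.9 and 28.2 CPM on Day 30, 30.3, 36.4 and 26.2 CPM on Day 60, and 25.9, 43.0, 30.2 and 31.4 CPM on Day 113, with overlap between all days. Its change over the whole course was 0.44 ± 0.16 (adjusted p = 0.047) and the call rested on single wells. It was lost without Day 30 replicates 1, 2 or 3 and Day 113 replicates 2, 3 or 4 (0.28 to 0.48, adjusted p from 0.057 to 0.16), with upper-quartile scaling (0.41, adjusted p = 0.060), with limma-voom (0.42, adjusted p = 0.057) and with a replicate block (0.42, adjusted p = 0.054). MVD, the decarboxylase, ran from 33.8 to 58.3 CPM and FDPS, farnesyl diphosphate synthase, from 36.6 to 57.0 CPM over the 11 wells, and neither passed the test in any comparison.

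Among the 11 squalene and sterol genes, 6 fell in the second interval and none rose (median log2 change -0.36), where 11.1% of all genes fell and 12.9% rose, after 1 rise and 1 fall in the first. SC5D, the desaturase that acts just before the final reduction (chr11:121292453-121308694, plus strand), changed most of all 32 genes. It was measured at 500.4, 361, 434 and 585 CPM on Day 30, 227, 226 and 239.9 CPM on Day 60, and 101, 116, 105 and 125 CPM on Day 113. The 3 days did not overlap, and each later day was lower. It fell by 2.04-fold in the first interval (-1.03 ± 0.14 on the log2 scale, adjusted p = 2.3e-04), by 2.07-fold in the second (-1.05 ± 0.13, adjusted p = 6.6e-05) and by 4.21-fold overall (-2.07 ± 0.13, adjusted p = 1.7e-08). The second fall minus the first was -0.02 ± 0.24 (adjusted p = 0.97).

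RNA typical of liver and endoderm fell with SC5D. Of 10 such markers, AFP and ALB among them, 9 fell from Day 30 to Day 60, none was at 0 in all wells of a day, and their sum went from 1291, 1385, 1048 and 477 CPM on Day 30 to 47.6 to 59.3 CPM on Day 60 and 26.8 to 48.0 CPM on Day 113. Across the Day 30 wells the orders differed: replicate 4 had the lowest marker sum, 477 CPM, and the highest SC5D, 585 CPM. SC5D fell again from Day 60 to Day 113, when 4 of the 10 markers fell and 1 rose. The marker sum was 59.3 CPM or less in every well of those days. The part of these cells in the fall was not tested.

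**Figure D3:**
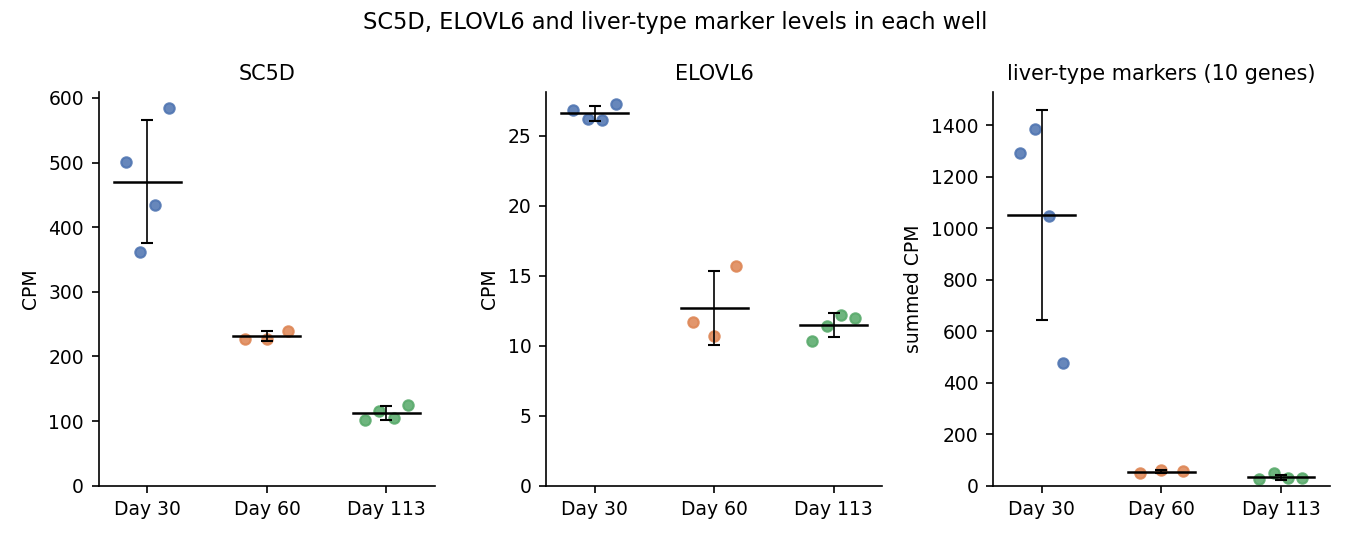
CPM of SC5D and ELOVL6 and summed CPM of the 10 liver-type and endoderm markers (vertical axes) in each well of the 3 days (horizontal axis); lines are means and bars SD (n = 4, 3 and 4 wells). SC5D fell at both steps, ELOVL6 at the first, and the marker sum was 477 to 1385 CPM on Day 30 and at most 59.3 CPM later.

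CYP51A1 and MSMO1, which act on the methyl groups of lanosterol, had their highest values on Day 60. CYP51A1, lanosterol demethylase (chr7:92112151-92134803, minus strand), was at 100.2, 94.6, 84.0 and 93.6 CPM on Day 30, 128, 106 and 134 CPM on Day 60, and 95.9, 87.5, 93.3 and 106 CPM on Day 113. Day 60 lay above Day 30 in all wells and Day 113 overlapped Day 30, with 1 Day 113 well just above the lowest Day 60 well. The rise was 0.40 ± 0.11 (adjusted p = 0.024), the fall -0.36 ± 0.11 (adjusted p = 0.022), and the 2 changes differed by -0.75 ± 0.18 (adjusted p = 0.018). Without Day 60 replicate 1 or replicate 3 both calls were lost (rise 0.39 and 0.35, adjusted p = 0.087 and 0.11; fall -0.33 and -0.30, adjusted p = 0.088 and 0.11), as were the rise without Day 30 replicate 3 (0.35, adjusted p = 0.082) and the fall without Day 113 replicate 3 (-0.35, adjusted p = 0.051).

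MSMO1, the methylsterol oxidase of a later step (chr4:165327623-165343160, plus strand), was at 119, 117, 112 and 112 CPM on Day 30, 144, 133 and 163 CPM on Day 60, and 82.1, 114, 113 and 104 CPM on Day 113. Day 60 was above both other days in every well. Its first change of 0.35 ± 0.11 missed the threshold (adjusted p = 0.062), its fall was -0.51 ± 0.11 (adjusted p = 0.0047), and the 2 changes differed by -0.86 ± 0.20 (adjusted p = 0.014). NSDHL, the dehydrogenase that works with MSMO1, was at 20.4, 20.4, 16.4 and 22.0 CPM on Day 30, 25.6, 24.1 and 19.2 CPM on Day 60, and 23.7, 39.4, 23.7 and 26.6 CPM on Day 113. It was higher on Day 113 than on Day 30 in all wells, by 0.52 ± 0.17 (adjusted p = 0.025), of which Day 113 replicate 2 carried a large share (0.32 and adjusted p = 0.086 without it; 0.44 and 0.082 without Day 30 replicate 3).

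FDFT1, squalene synthase, was at 210.1, 216, 205 and 199 CPM on Day 30, 231, 217 and 242 CPM on Day 60, and 155, 191, 167 and 191 CPM on Day 113. All Day 113 wells lay below both earlier days, and the second-interval fall was -0.39 ± 0.10 (adjusted p = 0.0086). DHCR7, the reductase of the final step, was at 59.8, 58.0, 60.3 and 52.1 CPM on Day 30, 52.8, 55.3 and 57.4 CPM on Day 60, and 33.9, 45.4, 46.5 and 45.5 CPM on Day 113. It fell in the second interval, with a log2 change of -0.37 ± 0.12 (adjusted p = 0.03), and over the course (-0.43 ± 0.11, adjusted p = 0.0057), with Day 113 below all earlier wells. The second-interval call was lost without Day 113 replicate 1, its lowest well (-0.27, adjusted p = 0.069), or without Day 60 replicate 1, 2 or 3 (-0.40, -0.36 and -0.34, adjusted p = 0.052, 0.071 and 0.087).

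EBP, the sterol isomerase, was at 21.9, 20.3, 21.4 and 20.0 CPM on Day 30, 23.7, 20.5 and 24.0 CPM on Day 60, and 12.6, 19.0, 16.3 and 18.7 CPM on Day 113. Day 113 was below the earlier wells in every well, with a log2 change of -0.45 ± 0.15 in the second interval (adjusted p = 0.035). The call was lost without Day 60 replicate 1 or 3 or Day 113 replicate 1 or 3 (-0.34 to -0.44, adjusted p from 0.07 to 0.1). Fitted on Day 60 and Day 113 alone, the second-interval falls of CYP51A1 (-0.37, adjusted p = 0.053), DHCR7 (-0.38, adjusted p = 0.068) and EBP (-0.47, adjusted p = 0.077) were not called. SQLE, squalene epoxidase, ran from 59.4 to 81.9 CPM, LSS, lanosterol synthase, from 14.8 to 22.5 CPM, the reductase gene TM7SF2 from 23.6 to 52.6 CPM and the reductase gene HSD17B7 from 7.90 to 11.6 CPM, and none of these 4 passed the test in any comparison.

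In the first interval 2 of 6 regulators rose and 1 fell (median log2 change 0.33), where 4.39% of all genes rose and 5.91% fell. In the second 4 fell and none rose (median log2 change -0.47), where 11.1% of all genes fell and 12.9% rose. INSIG1, an anchor that holds SCAP in the endoplasmic reticulum and is itself a target of SREBP (chr7:155297776-155310235, plus strand), was at 67.0, 52.7, 55.8 and 54.4 CPM on Day 30, 108, 85.3 and 92.8 CPM on Day 60, and 63.8, 69.1, 87.6 and 77.5 CPM on Day 113. Day 60 lay above Day 30 in all wells, 1.66-fold (0.73 ± 0.12 on the log2 scale, adjusted p = 0.0015), and Day 113 lay between, overlapping both. The second change minus the first was -1.09 ± 0.22 (adjusted p = 0.006). The fall to Day 113 (-0.36 ± 0.12, adjusted p = 0.049) was at the edge of the threshold and lost without any of 8 of the 11 wells (all but Day 30 replicate 1, Day 60 replicate 2 and Day 113 replicate 3; -0.27 to -0.38, adjusted p from 0.05 to 0.21), with a replicate block (-0.35, adjusted p = 0.057) and in a fit on Day 60 and Day 113 alone (-0.37, adjusted p = 0.078). The level on Day 113 stayed above Day 30 by 0.37 ± 0.12 (adjusted p = 0.02; 0.29 to 0.36 and adjusted p from 0.053 to 0.079 without Day 30 replicate 2, 3 or 4 or Day 113 replicate 3).

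SREBF1, which encodes the SREBP form tied mainly to fatty acid genes (chr17:17810399-17837002, minus strand), was at 98.5, 93.2, 85.9 and 79.4 CPM on Day 30, 141, 120.5 and 118 CPM on Day 60, and 84.0, 88.5, 94.2 and 70.9 CPM on Day 113. All Day 60 wells were above all wells of the other days, which overlapped. It rose by 0.51 ± 0.11 (adjusted p = 0.0091) and then fell, with a log2 change of -0.59 ± 0.11 (adjusted p = 0.0016). Its change over the whole course was -0.08 ± 0.11 (adjusted p = 0.61), and the 2 steps differed by -1.09 ± 0.20 (adjusted p = 0.0033). With CYP51A1 and INSIG1 it was 1 of 3 genes that rose and then fell with both steps called, a course shared by 0.915% of all genes; the second step of INSIG1 and both steps of CYP51A1 were lost under the settings given with each gene.

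SREBF2, which encodes the SREBP form tied mainly to cholesterol genes (chr22:41833079-41907308, plus strand), was at 527, 465, 458 and 479.8 CPM on Day 30, 494, 458 and 443 CPM on Day 60, and 255, 283, 303 and 313 CPM on Day 113. Day 30 and Day 60 overlapped and every Day 113 well lay below both. It was not called in the first interval (-0.05 ± 0.10, adjusted p = 0.83) and fell by 1.61-fold in the second (-0.69 ± 0.10, adjusted p = 1.5e-04).

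INSIG2, the second anchor, which is not under the same SREBP control (chr2:118088452-118110997, plus strand), was at 115, 113, 98.8 and 123 CPM on Day 30, 149, 116 and 129 CPM on Day 60, and 75.0, 67.2, 101 and 57.4 CPM on Day 113. Its fall lay in the second interval, -0.80 ± 0.15 (adjusted p = 0.0015), with Day 113 below all Day 60 wells, and Day 113 replicate 3 overlapped Day 30. SCAP, the escort, was at 112, 101, 109.7 and 117 CPM on Day 30, 91.7, 89.9 and 71.3 CPM on Day 60, and 95.5, 115, 92.4 and 91.5 CPM on Day 113. All Day 60 wells were below Day 30, a log2 change of -0.39 ± 0.11 (adjusted p = 0.039). That call was lost without any Day 30 well or any Day 60 well (-0.26 to -0.43, adjusted p from 0.057 to 0.24, the weakest without Day 60 replicate 3) and with upper-quartile scaling (-0.35, adjusted p = 0.054). STARD4, a sterol carrier, ran from 151 to 253 CPM and was not called in any comparison.

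**Figure D4:**
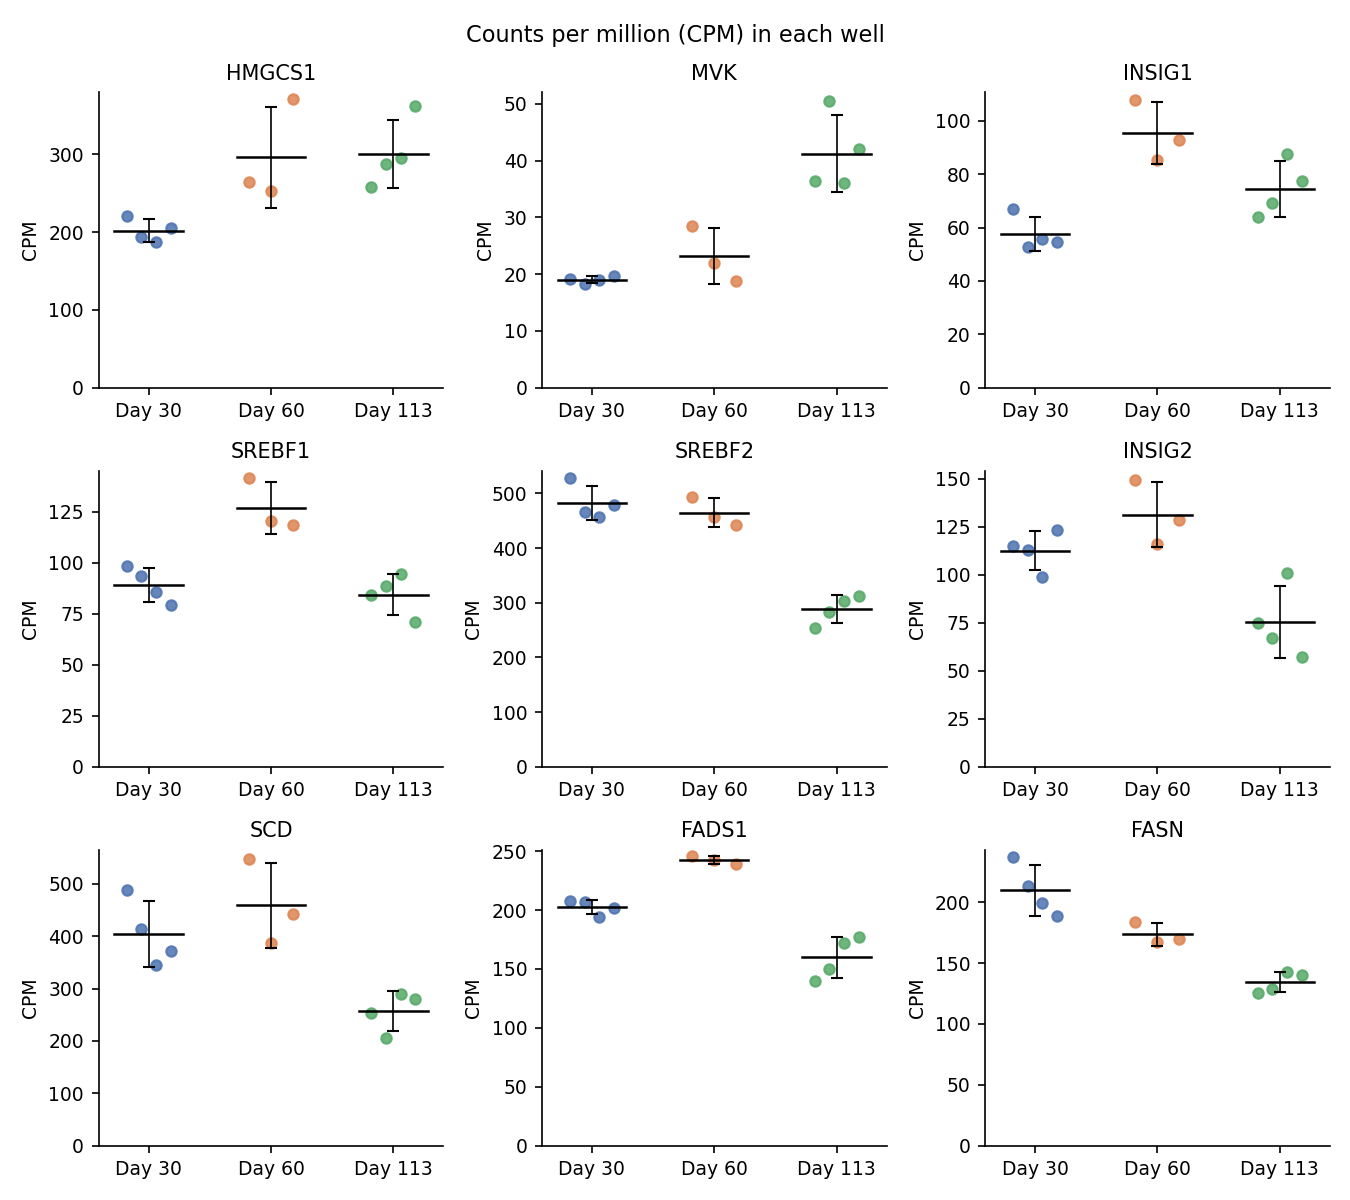
CPM (vertical axes, from 0) of 9 genes in each well of the 3 days (horizontal axes); lines are means and bars SD (n = 4, 3 and 4 wells). INSIG1 and SREBF1 were highest on Day 60, SREBF2, INSIG2, SCD, FADS1 and FASN were lowest on Day 113, and MVK was highest on Day 113.

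Promoter sequence is shown for 4 genes: SREBF2, which fell late, INSIG1 and MSMO1, highest on Day 60, and SC5D, which fell at both steps. Each is the 250 bases before the RefSeq transcription start on GRCh38.p14, plus strand, at chr22:41832855-41833104, chr7:155297628-155297877, chr4:165327419-165327668 and chr11:121292521-121292770. The gene coordinates given with each gene come from GENCODE and start elsewhere. Those starts fall inside the windows of SREBF2, INSIG1 and MSMO1, and the SC5D window lies wholly within the SC5D gene. Capitals mark TCACNCCAC, a form of the sterol regulatory element, its looser form TCACNCCAN, the E-box TCACGTGA, and CCAAT, the box bound by NF-Y, on either strand (CCAAT reads ATTGG on the other).
SREBF2: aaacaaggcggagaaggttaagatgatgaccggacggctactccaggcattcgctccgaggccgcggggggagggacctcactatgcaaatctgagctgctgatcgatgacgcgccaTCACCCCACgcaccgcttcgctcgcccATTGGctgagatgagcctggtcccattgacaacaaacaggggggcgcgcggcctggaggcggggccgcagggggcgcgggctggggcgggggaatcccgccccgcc
INSIG1: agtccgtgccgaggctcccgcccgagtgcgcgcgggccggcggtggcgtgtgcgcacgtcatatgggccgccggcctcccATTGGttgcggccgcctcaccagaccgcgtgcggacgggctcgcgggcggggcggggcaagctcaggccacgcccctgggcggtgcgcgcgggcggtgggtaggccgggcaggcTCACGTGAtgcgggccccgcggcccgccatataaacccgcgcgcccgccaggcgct
MSMO1: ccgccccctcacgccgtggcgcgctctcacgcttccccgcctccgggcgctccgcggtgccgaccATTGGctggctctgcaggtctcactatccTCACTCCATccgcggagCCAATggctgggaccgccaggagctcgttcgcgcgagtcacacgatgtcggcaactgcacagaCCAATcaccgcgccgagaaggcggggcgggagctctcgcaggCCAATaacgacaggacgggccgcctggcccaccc
SC5D: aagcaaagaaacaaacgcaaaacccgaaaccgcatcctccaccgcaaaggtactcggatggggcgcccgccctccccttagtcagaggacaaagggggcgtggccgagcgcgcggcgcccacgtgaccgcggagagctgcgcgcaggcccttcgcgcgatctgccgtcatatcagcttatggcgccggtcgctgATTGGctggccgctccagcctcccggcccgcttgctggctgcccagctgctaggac

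Windows were at hand for 28 of the 32 genes (39 windows, since some genes have several starts). TCACNCCAC was in 0.883% of all 35116 windows and, among these genes, only in that of SREBF2, 133 bases before the start; it also matches CACCCCAC, found in 2.43% of all windows. The looser TCACNCCAN, which contains every match of the stricter form, was in 3.19% of all windows and in those of SREBF2, MVK and MSMO1, 156 bases before the start in MSMO1. The E-box was in 0.854% of windows and only in that of INSIG1, 56 bases before the start. CCAAT was in 32.01% of all windows and in 24 of the 39, from 20 of the 28 genes, and GGGCGG, the GC box, in 42.6% of all windows and 34 of the 39. These are matches of letters on either strand of 1 short window, and no site was tested.

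Among the 8 fatty acid genes none rose in any comparison, 2 fell in the first interval, 3 in the second and 5 over the whole course (median log2 change over the course -0.47), where 5.91%, 11.1% and 17.2% of all genes fell. FASN, the synthase that builds palmitate, was at 237, 213, 199.6 and 188 CPM on Day 30, 184, 167 and 169.6 CPM on Day 60, and 126, 129, 143 and 139.9 CPM on Day 113. The days did not overlap and each later day was lower. Its first change of -0.27 ± 0.10 missed the threshold (adjusted p = 0.097), and it then fell in the second interval (-0.37 ± 0.10, adjusted p = 0.012; -0.33 and 0.058 without Day 60 replicate 1), a change over the course of -0.64 ± 0.09 (adjusted p = 5.8e-05).

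SCD, the desaturase that makes monounsaturated fatty acids (chr10:100347124-100364834, plus strand), was at 488, 413, 346 and 371 CPM on Day 30, 548, 388 and 442 CPM on Day 60, and 254, 206, 289 and 281 CPM on Day 113. Day 30 and Day 60 overlapped and every Day 113 well lay below both. It fell by 1.78-fold in the second interval (-0.83 ± 0.15, adjusted p = 7.7e-04), and that change differed from the first by -1.02 ± 0.25 (adjusted p = 0.02). FADS1, a desaturase of polyunsaturated fatty acids (chr11:61799625-61829318, minus strand), was at 208, 207, 195 and 202 CPM on Day 30, 246, 243 and 239 CPM on Day 60, and 140.2, 150.2, 172 and 177 CPM on Day 113. The 3 days did not overlap: Day 60 was highest and Day 113 lowest. Its fall in the second interval was -0.60 ± 0.09 (adjusted p = 3.6e-04), after a first change of 0.26 ± 0.10 that missed the threshold (adjusted p = 0.1), and the 2 differed by -0.86 ± 0.17 (adjusted p = 0.0048).

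FADS2 is a desaturase whose annotated span (chr11:61792980-61867354, plus strand) contains all of FADS1, which lies on the other strand. FADS1 and FADS2 share 490 bases of exon. FADS2 ran from 123 to 156 CPM and changed by 0.09 ± 0.10 in the second interval (adjusted p = 0.55). Whether FADS1 and FADS2 differed from each other in this was not tested.

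ELOVL6, the elongase that takes palmitate to stearate (chr4:110045846-110199199, minus strand), was low and fell early, at 26.9, 26.2, 26.2 and 27.3 CPM on Day 30, 11.7, 10.7 and 15.7 CPM on Day 60, and 10.3, 11.4, 12.2 and 12.0 CPM on Day 113. The Day 30 wells were close together and above every later well. It fell by 2.09-fold in the first interval (-1.06 ± 0.15, adjusted p = 3.4e-04) and then changed by -0.15 ± 0.15 (adjusted p = 0.52), a difference between intervals of 0.92 ± 0.27 (adjusted p = 0.042). The 9 liver-type and endoderm markers that fell did so in the same interval. Over the Day 30 wells their sum ran from 477 to 1385 CPM and ELOVL6 from 26.2 to 27.3 CPM, and the part of these cells in its fall was not tested.

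ACLY, the enzyme that supplies cytosolic acetyl-CoA to both pathways, was at 135, 135, 123 and 113 CPM on Day 30, 95.7, 96.2 and 91.8 CPM on Day 60, and 115, 99.5, 108 and 99.8 CPM on Day 113. All Day 30 wells were above all Day 60 wells, and Day 113 lay above Day 60 and overlapped Day 30. Its first-interval fall was -0.42 ± 0.10 (adjusted p = 0.01); with Day 30 replicate 2 left out it was -0.36 at an adjusted p of 0.053, and with Day 60 replicate 3 left out -0.37 at 0.063, so it did not pass in either case. The change in the second interval was 0.16 ± 0.10 (adjusted p = 0.25), and the whole-course fall of -0.26 ± 0.09 (adjusted p = 0.032) was lost without any of 7 wells (Day 30 replicates 1, 2 and 3, Day 60 replicate 1, and Day 113 replicates 2, 3 and 4; -0.22 to -0.27, adjusted p from 0.051 to 0.11) and in a fit on Day 30 and Day 113 alone (-0.24, adjusted p = 0.057).

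Acetyl-CoA carboxylase, which makes malonyl-CoA, has a cytosolic form, ACACA, and a mitochondrial form, ACACB, whose product restrains fatty acid burning. ACACB ran from 121 to 207 CPM and was not called, its first change being 0.35 ± 0.12 (adjusted p = 0.084) with all Day 60 wells above Day 30. ACACA was the lowest of the 32 genes, from 0.712 to 3.43 CPM, from 19 counts in 1 library upward, and its errors were wide (-0.59 ± 0.42 over the course, adjusted p = 0.31). Within each library the log2 count ratio of ACACB to ACACA was 6.06 ± 0.51 (SD, n = 4) on Day 30, 6.49 ± 0.72 (n = 3) on Day 60 and 6.83 ± 0.65 (n = 4) on Day 113, with no difference past the threshold (exact permutation p from 0.14 to 0.51).

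Ratios within a library do not depend on scaling between libraries. The log2 ratio of SREBF1 to SREBF2 counts was -2.42, -2.32, -2.41 and -2.59 in the Day 30 wells, -1.81, -1.93 and -1.90 on Day 60, and -1.6, -1.68, -1.68 and -2.14 on Day 113. Both later days lay wholly above Day 30 and overlapped each other. The difference was 0.56 from Day 30 to Day 60 and 0.66 from Day 30 to Day 113, each with a two-sided exact permutation p of 0.029, the smallest these designs allow (n = 3 or 4 wells), and 0.064 after adjustment over the 9 ratio tests. From Day 60 to Day 113, when both genes fell, the ratio differed by 0.10 (exact permutation p = 0.54, adjusted 0.54).

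For INSIG1 to INSIG2 the log2 ratio was -0.78, -1.10, -0.82 and -1.18 on Day 30, -0.47, -0.45 and -0.47 on Day 60, and -0.24, 0.04, -0.21 and 0.43 on Day 113. The 3 days did not overlap, and each later day was higher. The differences were 0.51 and 0.98 from Day 30 (exact permutation p = 0.029 each, adjusted 0.064) and 0.47 from Day 60 to Day 113 (exact permutation p = 0.086, adjusted 0.15). None of the 9 ratio tests passed after adjustment. With 0.029 the smallest p these wells allow, a few full separations among 9 tests could not pass whatever their size. The lack of a pass therefore decides nothing.

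**Figure D5:**
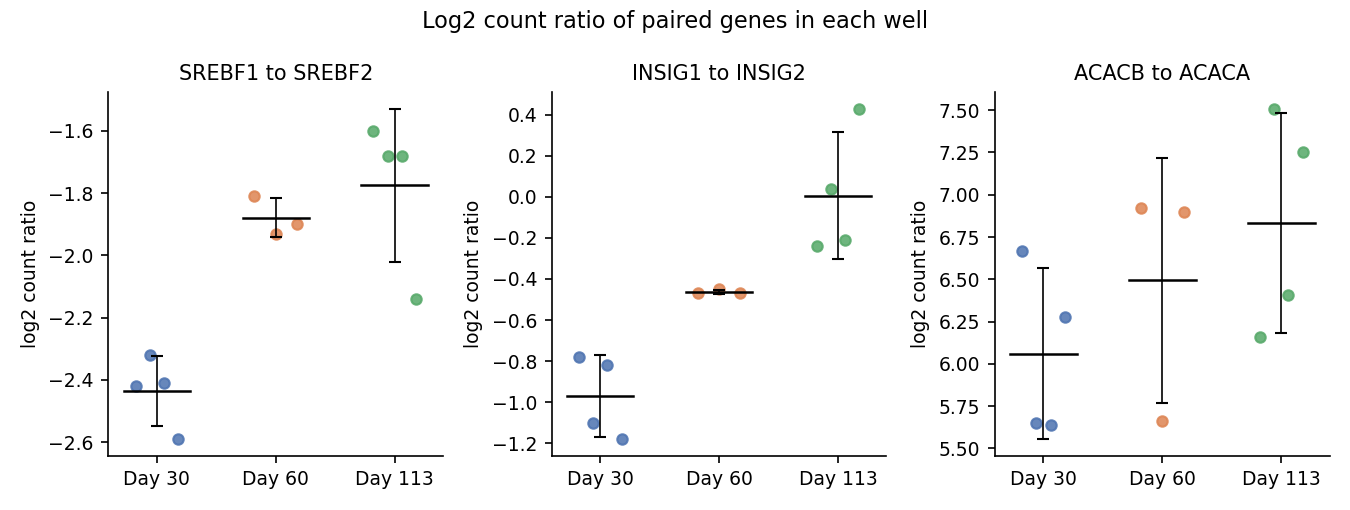
Log2 ratio of counts within each library (vertical axes) for SREBF1 to SREBF2, INSIG1 to INSIG2 and ACACB to ACACA by day of culture (horizontal axes); lines are means and bars SD (n = 4, 3 and 4 wells). Both later days lie above Day 30 for the first 2 ratios, and the third overlaps between days.

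Set per kilobase of exon, the order of levels changed. On Day 30 SC5D led with 84.5 CPM per kb, followed by SCD (75.4) and SREBF2 (63.9). On Day 113 HMGCS1 led with 63.9 CPM per kb, followed by SCD (48.0) and SREBF2 (38.2), and SC5D, at 20.1 CPM per kb, ranked 12 of 32. ACACA was lowest on each day, at 0.168, 0.168 and 0.111 CPM per kb. Spread between wells was narrowest on Day 30: the median coefficient of variation of the 32 genes was 8.09% there, 12.1% on Day 60 and 14.0% on Day 113. Between whole libraries of a day, the chi-square per degree of freedom ran from 11.4 to 34.4 on Day 30. It ran from 23.4 to 28.1 on Day 60 and from 25.6 to 84.0 on Day 113. Whether the spread of the 32 genes differed from that of all genes was not tested.

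Marker RNA of cycling, endothelial, and fibroblast and matrix cells also moved with the days. The 6 cycling-cell markers, MKI67 and TOP2A among them, moved in both intervals, in which 3 rose and then all 6 fell, with sums of 322 to 401 CPM, then 533 to 749 CPM, then 207 to 377 CPM, and none at 0. The 6 endothelial markers all rose in the second interval, from 37.1 to 60.4 CPM on Day 60 to 182 to 748 CPM on Day 113 (52.9 to 75.5 CPM on Day 30). Of 7 fibroblast and matrix markers, 4 rose and 1 fell in the second interval, with sums of 3353 to 7706, 2068 to 3569 and 5427 to 13033 CPM. The part of these cells in the changes of the 32 genes was not tested.

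Of the remaining lists, 5 of 6 epithelial markers fell in the first interval (2146 to 3062, then 1288 to 1475, then 1174 to 1963 CPM). Between Day 30 and Day 113, 3 of the 5 smooth muscle and mural markers with a row rose (660.4 to 914 CPM, then 726 to 882 CPM, then 931 to 1424 CPM), as did 2 of 4 epicardial markers while 1 fell (95.6 to 132 CPM, then 145 to 204 CPM, then 184 to 249.6 CPM). None of 5 neural markers changed over that course (21.8 to 56.6 CPM, then 42.1 to 86.0 CPM, then 26.6 to 55.9 CPM). Of 5 adipocyte markers only PLIN1 and PLIN4 had a row, 1 of which rose, and their sum never passed 4.97 CPM. Among the cardiomyocyte markers 1 rose and 2 fell over the course.

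Genes that surround the pathway were taken from 5 lists, and 79 of the 83 names listed had a row. Over the whole course 16 of the 79 rose and 17 fell; in the first interval 1 rose and 6 fell, and in the second 14 rose and 10 fell. The shares called, 41.8%, 8.86% and 30.4%, stood beside 34.5%, 10.3% and 24.0% of all genes. Whether these lists differ from the 32 genes was not tested.

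In SREBP processing and sterol sensing, 1 of 11 genes rose and 1 fell over the course, 18.2% called against 34.5% of all genes. MBTPS1, the protease that makes the opening cut in SREBP, went from 83.5 ± 5.26 CPM (SD, n = 4) to 76.0 ± 12.9 (n = 3) and 135 ± 7.92 (n = 4), a rise of 0.69 ± 0.10 (adjusted p = 9.3e-05). C12orf49, a Golgi protein needed for SREBP signalling, went from 50.8 ± 2.42 CPM to 40.8 ± 6.43 and 30.5 ± 2.26, a change of -0.73 ± 0.11 (adjusted p = 8.1e-05). No gene of this list was called in the first interval, against 10.3% of all genes. In the second 2 rose and 1 fell, 27.3% called against 24.0% of all genes.

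In the isoprenoid branch, which uses the products of the mevalonate steps, 5 of 14 genes rose over the course and none fell, and these 35.7% called are near the 34.5% of all genes. ZMPSTE24, a protease for prenylated proteins such as prelamin A, rose by 0.86 ± 0.15 (adjusted p = 3.5e-04) from 16.4 ± 3.05 to 29.8 ± 1.30 CPM. COQ2, a prenyltransferase of ubiquinone synthesis, rose by 0.82 ± 0.18 (adjusted p = 0.0021) from 11.5 ± 2.17 to 20.3 ± 2.77 CPM, and ICMT, which methylates prenylated proteins, by 0.34 ± 0.08 (adjusted p = 0.005) from 79.5 ± 4.94 to 101 ± 5.81 CPM. None of the 14 was called in the first interval, against 10.3% of all genes. In the second 3 rose, 21.4% called against 24.0% of all genes.

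For sterol uptake, storage and efflux, 3 of 19 genes rose over the course and 8 fell, 57.9% called against 34.5% of all genes. CYP27A1, a mitochondrial sterol hydroxylase also abundant in liver, changed by -1.99 ± 0.17 (adjusted p = 4.2e-07), from 17.3 ± 1.05 CPM on Day 30 to 4.60 ± 0.844 on Day 60 and 4.35 ± 0.509 on Day 113, over the days when liver-type markers fell; the part of those cells was not tested. LIPA, the lysosomal acid lipase that frees cholesterol from its esters, rose by 1.51 ± 0.16 (adjusted p = 2.8e-06), from 15.6 ± 2.34 to 20.7 ± 1.80 and 44.5 ± 9.92 CPM. ABCA1, the cholesterol exporter, changed by -1.33 ± 0.21 (adjusted p = 1.5e-04), from 44.9 ± 10.2 to 34.9 ± 7.82 and 17.9 ± 4.81 CPM.

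For other fatty acid elongation and glycerolipid synthesis, 5 of 26 genes rose over the course and 8 fell. DGAT2, which makes triglyceride, changed by -1.28 ± 0.15 (adjusted p = 1.1e-05), from 20.6 ± 2.77 to 8.49 ± 0.691 CPM, and ME1, the malic enzyme that supplies NADPH for synthesis, by -1.00 ± 0.13 (adjusted p = 2.0e-05), from 32.01 ± 3.43 to 16.0 ± 2.14 CPM. LPIN3, a phosphatidate phosphatase, rose by 1.13 ± 0.18 (adjusted p = 1.6e-04), from 14.0 ± 3.25 to 30.6 ± 2.23 CPM. In mitochondrial fatty acid synthesis, a separate pathway of the mitochondrial matrix, 2 of 9 genes rose and none fell, 22.2% called against 34.5% of all genes: NDUFAB1, its acyl carrier, by 0.43 ± 0.12 (adjusted p = 0.013), and OXSM, its condensing enzyme, by 0.46 ± 0.17 (adjusted p = 0.047). The call for OXSM was lost without Day 30 replicate 1, 2 or 4 or Day 113 replicate 2, 3 or 4 (0.39 to 0.49, adjusted p from 0.062 to 0.13), with upper-quartile scaling (0.43, adjusted p = 0.062) and with limma-voom (0.44, adjusted p = 0.051).

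Exons of 15 of the 32 genes overlap those of a second gene in the annotation, which has a row of its own in 11 cases. The strand setting of the count is not given in the sources used here. Reads in overlaps on opposite strands could therefore be split between the partners. Overlaps on the same strand stay uncertain under any strand setting. The longest covers 2844 of the 3584 exon bases of CYP51A1, shared with AC000120.2, a protein-coding entry without a row. Among partners with a row, FEN1, which overlaps FADS2 by 49 bases on the same strand, rose by 1.23 over the course (adjusted p = 2.7e-04). FADS2 was not called. RAI1, opposite SREBF1, was not called in any comparison (adjusted p from 0.17 to 0.86). FDPS, CYP51A1, HSD17B7, SCD and FADS2 also have annotated pseudogene copies, which makes their counts less certain.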

How the data were processed

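RNA was measured in 11 wells of WTC11-derived cardiomyocytes (4, 3 and 4 wells at Day 30, at Day 60 and at Day 113). The authors deposited whole-number read counts for 19990 genes, not normalized, with 24.1 to 34.5 M counts per library (M, units of 1000000). STAR 2.5.3a, featureCounts 2.0.3 and hg38 are named in the submitters' processing notes; strand setting and annotation are not given in the sources used here. A second table deposited by the authors held TPM, which gave implied gene lengths that did not match between libraries (median Spearman rho -0.0014 across 55 library pairs), so TPM entered no comparison.

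The count model was edgeR's quasi-likelihood fit (version 4.0.16, R 4.3.3) with its F-test, with TMM scaling (factors 0.966 to 1.04), all 11 libraries in 1 fit with day as the only factor, and a minimum count of 10 in filterByExpr, which removed no gene. Adjustment followed Benjamini and Hochberg over all 19990 genes, with a threshold of 0.05, and every adjusted p for a gene comes from this test unless another is named. Standard errors were derived from the size of the log2 change and its F value. CPM used the scaled library sizes; per-kilobase levels used the union of GENCODE exons on GRCh38. Ratios used a pseudocount of 0.5 and two-sided exact permutation tests.

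All 32 genes are named, with values per well for those called in any comparison; of the other pathway genes, up to 3 per list with the largest called change from Day 30 to Day 113. The members and lists were chosen with earlier results of these data known. Replicates of a day differed by more than sampling noise (chi-square per degree of freedom 11.4 to 84.0). The scripts were tested on simulated data. Alternatives were RLE and upper-quartile scaling, 2 filters, DESeq2 1.42.0, limma-voom (limma 3.58.1), a replicate block, fits on the compared days alone, a pseudocount of 1 for the ratios and leaving out each well.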

Additional observations from a re-analysis of the deposited data

Results flagged for a closer look

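In 96 groups of 4 wells, over the 32 genes, the named pathway genes and the ratios, 6 held a well whose gap to its nearest neighbour took up most of the range (Dixon's criterion at 95%); chance gives about 1 in 20 such groups. On Day 113, IDI1 was at 71.99 CPM in replicate 1 against 97.9 to 103 CPM in the others, and DHCR7 at 33.9 CPM in the same replicate against 45.4 to 46.5 CPM. SCAP was at 115 CPM in Day 113 replicate 2 against 91.5 to 95.5 CPM. On Day 30, MBTPS1 was at 91.4 CPM in replicate 2 against 80.2 to 81.5 CPM, and CYP27A1 at 18.9 CPM in replicate 4 against 16.7 to 16.8 CPM. The log2 ratio of SREBF1 to SREBF2 was -2.14 in Day 113 replicate 4 against -1.68 to -1.6.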

How the results depend on the processing

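Under RLE or upper-quartile scaling, no filter, a filter of 1 CPM in 3 libraries, DESeq2, limma-voom, the replicate block and fits on the compared days alone, each count of called genes among the 32 stayed within 1.5 times its value. Leaving out single wells moved the first-interval count (9) to between 4 and 12, the second (15) to between 10 and 15, the whole course (15) to between 11 and 16, any change (19) to between 16 and 22, and the difference between intervals (10) to between 2 and 12. Over all genes, upper-quartile scaling turned 993 interval differences above 0 and 875 below into 770 and 1146.

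Same-numbered wells had weak positive correlations of 0.023 to 0.076 between their deviations from the day means (0 of 10 over 0.1). Differently numbered wells had -0.078 to 0.069, and 9 of 11 wells correlated best with their own number. The link by number was weak, and the main fit held no replicate block. With a replicate block the counts were 11, 16 and 14 genes for the 3 pairs of days, 22 for any change and 12 for the difference.

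Changes near 0 turned sign without being called. HMGCS1 in the second interval became -0.0446 with upper-quartile scaling and -0.025 with the block, and FDPS -0.0252 with upper-quartile scaling. LSS over the course became -0.0161 with upper-quartile scaling and -0.002 with limma-voom. ACACA in the first interval became 0.0087 with RLE, 0.0342 with upper-quartile scaling, 0.0264 with the CPM filter, 0.008 with DESeq2 and 0.0129 on 2 days alone. Without single wells the log2 changes ran, in the first interval, from -0.0524 to 0.136 for ACAT2, -0.0778 to 0.0049 for SREBF2 and -0.488 to 0.252 for ACACA; in the second, from -0.0803 to 0.209 for HMGCS1, -0.0863 to 0.207 for PMVK, -0.177 to 0.0934 for MVD, -0.0637 to 0.145 for FDPS and -0.256 to 0.0249 for ELOVL6; and over the course, from -0.0531 to 0.106 for LSS, -0.0126 to 0.0801 for CYP51A1, -0.300 to 0.0583 for TM7SF2 and -0.0058 to 0.108 for HSD17B7. The log2 ratio of ACACB to ACACA from Day 60 to Day 113 ran from -0.076 to 0.565. Of the 96 changes tested between pairs of days among the 32 genes, 57 missed the threshold and 10 of these passed it under at least 1 alternative. They were, in the first interval, MSMO1 and STARD4 (6 alternatives each), ACACB (4) and FADS1 (2, DESeq2 and the 2 days alone); in the second, STARD4 (2) and ACACB and TM7SF2 (1 each); and over the course, FDFT1 (5), EBP (2) and IDI1 (1). With 3 wells on Day 60, a smaller change than these could be missed.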

Other observations

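The synthesis genes were not evenly spread over the wells of a day. In Day 113 replicate 1, 19 of the 32 genes had their lowest value of that day, which held for 27.97% of all genes; among them were HMGCS1, IDI1, FDFT1, MSMO1, DHCR7, SREBF2, FASN and FADS1. The 32 genes summed to 2806 CPM there against 3031, 3165 and 3289 CPM in replicates 2, 3 and 4, while the 6 endothelial markers summed to 748 CPM against 283, 346 and 182 CPM, the 7 fibroblast and matrix markers to 13033 CPM against 6754, 11264 and 5427 CPM, the 5 smooth muscle and mural markers to 1424 CPM against 1178, 1207 and 931 CPM, and the 6 cycling-cell markers to 377 CPM against 209.6, 207 and 341 CPM. The 8 cardiomyocyte markers also had their highest sum there, 29956 CPM against 29293, 28002 and 27143 CPM. Neural, liver-type and adipocyte marker sums were lowest there, at 26.6, 26.8 and 1.30 CPM. Epicardial and epithelial sums were neither highest nor lowest. The part of any of these cells was not tested. On Day 60, replicate 2 held the lowest value for 17 of the 32 genes (30.3% of all genes) and replicate 1 the highest for 15 (33.7%). In Day 30 replicate 1, 15 of the 32 were highest (24.2% of all genes). These counts describe the wells, and no test was made.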
